A study of Mus musculus with 9 samples.

Results

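The genes encoding the proteins of the cytosolic ribosome were taken from a table of 22183 mouse genes by their symbols, Rpl followed by a digit or p and Rps followed by a digit or a, leaving out 7 symbols marked as pseudogenes and 10 symbols of the Rps6k kinases. The rule gave 87 genes, 52 named for the large subunit and 35 for the small subunit. Of these, 84 had enough counts to be tested among 14211 genes. The 3 that did not were Rpl10l, with no count in any library, and Rps23rg1 and Rps27rt, which did not pass the filter on low counts. The symbols also take in 6 tested copies with restricted or poorly known use (Rpl3l, Rpl22l1, Rpl39l, Rps27l, Rpl7l1, Rpl36al) and Rps19bp1, which encodes a partner of a ribosomal protein and no ribosome subunit. The other 77 tested genes are called the core genes here.

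A cytosolic ribosome joins a small subunit, which reads the mRNA, to a large subunit, which forms the peptide bond. Nearly every subunit protein is made from a gene of its own and is needed in equal number with the others. Their mRNAs are short and abundant and carry a terminal oligopyrimidine (TOP) motif, a C at the cap followed by a run of pyrimidines, through which mTOR signalling and the protein LARP1 control their translation as a group. In marrow the supply of ribosomal proteins is best known through Diamond-Blackfan anaemia, in which loss of a copy of such a gene impairs red cell formation.

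RNA of mouse tibiae was selected for poly(A) and sequenced in 9 libraries. In the Ti+I-OG group titanium particles were combined with I-OG. This is a hydrogel for injection, built from natural polymer and loaded with irisin, a hormone that muscle makes. The Ti group had titanium particles, which model implant wear debris, and the naive group had no treatment. The series text gives 5 weeks of treatment, and the sources used here give no strain, age or sex, no empty hydrogel and no sham procedure, so titanium cannot be told apart from its delivery. Each group had 3 libraries, and no label says whether these came from separate animals. Every p-value rests on the variation among libraries within groups, pooled over all 9 in the edgeR fit, and that variation may be technical. In RNA of whole tibiae fewer cells of a type and less RNA per cell cannot be told apart.

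Total counts were 16256082 to 24766516 per library. The 4 α- and β-globin genes took 15.1%, 15.9% and 15.9% of counts in Ti+I-OG, 6.68%, 7.46% and 9.98% in Ti and 6.03%, 9.47% and 2.95% in naive. The libraries also differed in how abundance followed transcript length over all tested genes. The Spearman coefficient between the length of a gene and its level in that library, less its average level, was −0.33, −0.48 and −0.12 in Ti+I-OG, 0.08, −0.06 and −0.08 in Ti and 0.13, 0.27 and 0.35 in naive. Short transcripts were relatively more abundant in all 3 Ti+I-OG libraries and less abundant in all 3 naive libraries. Length was estimated from the ratio of counts to FPKM, the count scaled to library size and transcript length. It had a median of 717 bases over the 84 tested ribosomal protein genes (345 to 3706 bases) and 2717 bases over all tested genes, and 69 of the 84 lay in the shortest 10% of genes. The bone matrix markers of the tibia were present in all libraries, with a summed level of 8078 to 9736 CPM in Ti+I-OG, 11712 to 13161 CPM in Ti and 2493 to 5964 CPM in naive. Naive replicate 3 stood apart, with the lowest globin share, the highest length coefficient and the lowest summed level of bone, tendon, B lineage and erythroid markers.

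The start of the gene is where the TOP motif lies, so windows of 50 bases, from 30 before to 20 after the annotated start on the transcript strand, are shown for 9 of the genes that passed the test below. They are followed by Rpl3l, a muscle form of a core gene. The sequences are from RefSeq on build GRCm38.p6, and the start listed first is shown where a gene has several. Capitals mark the longest run of at least 5 pyrimidines that opens with C. Runs that end more than 20 bases before the start were left out.
Rps15 (chr10:80292401-80292450, + strand): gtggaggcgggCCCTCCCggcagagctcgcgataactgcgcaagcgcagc
Rpl41 (chr10:128549149-128549198, − strand): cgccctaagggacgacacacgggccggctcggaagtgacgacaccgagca
Rps10 (chr17:27635225-27635274, − strand): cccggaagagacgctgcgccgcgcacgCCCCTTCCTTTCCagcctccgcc
Rps21 (chr2:180257349-180257398, + strand): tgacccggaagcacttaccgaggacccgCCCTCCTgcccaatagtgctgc
Rps16 (chr7:28350659-28350708, + strand): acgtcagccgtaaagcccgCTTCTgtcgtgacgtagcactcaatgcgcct
Rps13 (chr7:116334171-116334220, − strand): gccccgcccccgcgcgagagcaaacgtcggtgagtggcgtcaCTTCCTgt
Rpl13a (chr7:45128726-45128775, − strand): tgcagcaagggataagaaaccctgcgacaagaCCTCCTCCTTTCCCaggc
Rpl10a (chr17:28328441-28328490, + strand): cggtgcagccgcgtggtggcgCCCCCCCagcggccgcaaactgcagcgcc
Rplp2 (chr7:141447621-141447670, + strand): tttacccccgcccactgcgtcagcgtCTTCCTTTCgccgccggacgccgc
Rpl3l (chr17:24727796-24727845, + strand): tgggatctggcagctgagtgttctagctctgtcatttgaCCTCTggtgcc

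In Rps10, Rps21 and Rplp2 the run crosses the annotated start, in Rpl13a it follows it closely, and in Rpl41 no such run is present in this window. Over 79 start windows of 67 members, 17.7% had a C followed by 4 pyrimidines exactly at the annotated start, against 2.47% of 32772 windows of all other genes. The letters CTTTC on the transcript strand were in 27.8% of the members' 50-base windows, against 6.81% of the others. A run of at least 5 pyrimidines opening with C, with the same runs left out as for the capitals, was in 70.9% of the members' 50-base windows, against 49.3% of the others. CCGGAAG, the letters of an ETS factor motif, were on either strand of 34.2% of the members' 300-base promoter windows, against 8.80% of the others. TATAAA on the transcript strand of the 50 bases before the start was in 1.27% against 2.63%. Annotated starts are often displaced by a few bases, so the share with the motif exactly at the start is a count of letters and not of TOP mRNAs.

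Taken as a group, the 87 genes held 6.43%, 6.64% and 5.21% of all counts in Ti+I-OG libraries, 5.27%, 5.73% and 5.13% in Ti libraries and 5.46%, 5.31% and 4.11% in naive libraries. Replicates 1 and 2 of Ti+I-OG were above every other library, Ti+I-OG replicate 3 lay among the Ti and naive values, and naive replicate 3 was the lowest. The means were 6.09% ± 0.775 in Ti+I-OG, 5.37% ± 0.312 in Ti and 4.96% ± 0.741 in naive (SD, n = 3 each). As a share of summed FPKM, which divides by length, they were 9.72% ± 0.978, 9.63% ± 0.458 and 9.45% ± 0.716 in the same order of groups. The group means differed by less than 1 SD on the FPKM scale. This share also depends on the other genes in the sum, globin and mitochondrial genes included. A share of FPKM without those genes is not given here. Of the counts outside globin and mitochondrial genes the 87 genes held 7.86% ± 1.07 in Ti+I-OG, 6.51% ± 0.524 in Ti and 5.66% ± 1.06 in naive.

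The mean level of the 77 core genes, as log2 CPM (the count scaled to normalised library size) less the average of the gene, was 0.35, 0.46 and −0.03 in Ti+I-OG, 0.02, 0.06 and −0.09 in Ti and −0.10, −0.10 and −0.58 in naive. The core genes moved together from library to library. For 61 of the 77 the highest library was Ti+I-OG replicate 2, and for 73 of the 77 the lowest was naive replicate 3. Libraries of 1 group did not agree closely: the pooled SD within groups of this mean level was 0.22, nearly as large as the step between neighbouring groups.

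**Figure D1:**
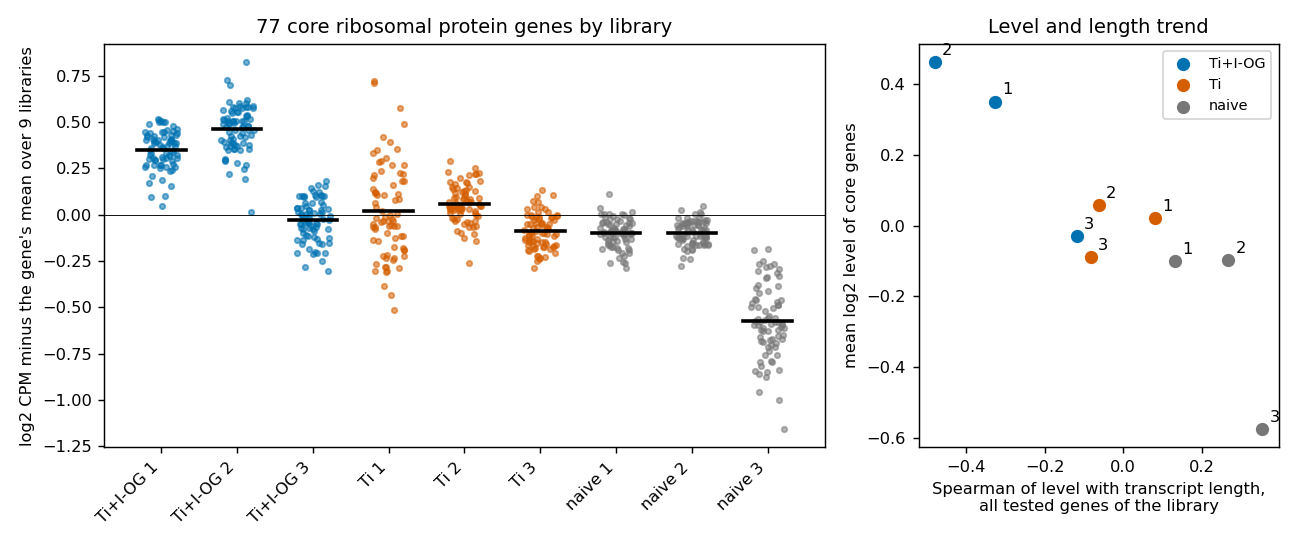
Left, each point is 1 of the 77 core ribosomal protein genes in 1 library, as log2 CPM less the average of the gene, and black bars are library means. Right, the library means are set against the Spearman coefficient of level with transcript length over all tested genes of that library. Ti+I-OG replicates 1 and 2 have the highest means (0.35 and 0.46) with the most negative coefficients, and naive replicate 3 has the lowest mean (−0.58) with the most positive one.

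The library order of the core genes was close to that of the length coefficient, as the right panel of the plot by library shows. The 14 erythroid markers also differed between groups, with a summed level of 170790 to 185427 CPM in Ti+I-OG, 71656 to 104407 CPM in Ti and 30946 to 98396 CPM in naive. None of these markers was at 0 in all libraries, and 5 of 14 (Hba-a1, Hba-a2, Hbb-bs, Hbb-bt and Alas2) rose in Ti+I-OG against naive, with a median log2 fold change of 0.67 over the 14. With the length offsets described below 0 of the 14 passed by edgeR (11 at an unadjusted p under 0.05), with a median of 0.55. Fitted with the replicate number as a block, 8 passed, and 7 with block and offsets, beside 12.1% and 6.85% of all genes called higher. Markers of the B lineage, cells that are also rich in ribosomes, summed to 535 to 575 CPM in Ti+I-OG, 544 to 621 CPM in Ti and 194 to 547 CPM in naive, with the low value in naive replicate 3. None of its 15 markers was at 0 throughout, and none passed the test in any comparison by edgeR without the block (3 with it in Ti+I-OG against naive), while 6 were at an unadjusted p under 0.05 in Ti+I-OG against naive, 0 in Ti+I-OG against Ti and 8 in Ti against naive.

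Markers of tendon and fibrous tissue summed to 905 to 1821 CPM in Ti+I-OG, 1267 to 2931 CPM in Ti and 190 to 542 CPM in naive. Of these, 9 of 13 rose in Ti+I-OG against naive (median log2 fold change 1.89), 0 in Ti+I-OG against Ti and 12 of 13 in Ti against naive (median 2.38). Neutrophil markers summed to 31022 to 44420 CPM in Ti+I-OG, 35079 to 46160 CPM in Ti and 41136 to 54550 CPM in naive, and 2 of 16 fell in Ti+I-OG against naive (Cxcr2 and Csf3r, median −0.52) and 3 in Ti against naive. In Ti+I-OG against naive 12 of 13 tendon markers were higher and 7 of 16 neutrophil markers lower with the replicate block. Of all 14211 genes, 1720 were higher and 1730 lower with it. Bone matrix markers rose in 1 of 14 in Ti+I-OG against naive, 8 with the replicate block, and in 10 of 14 in Ti against naive. None of these markers was at 0 in all libraries. The part of red cell precursors, B cells, neutrophils, tendon and bone cells in the levels of the ribosomal protein genes was not tested.

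Within the core the transcripts differed widely in abundance. Mean CPM ran from 67.4 for Rps28 to 2136 for Rpsa, with a median of 619. Per length, mean FPKM ran from 98.0 for Rps20 to 2130 for Rps24, with a median of 850. Rpsa, the laminin receptor protein of the small subunit, led by CPM, followed by Rplp0 at 1979 CPM and Rps2 at 1808 CPM. By FPKM the order differed: Rps24 was followed by Rps14 at 2080 FPKM and Rpl23a at 1968 FPKM, while Rpsa had 1195 FPKM. Rps20 had 367 CPM, but its estimated length of 3706 bases equals the length of its annotated transcript in GENCODE M21 and divides that level down. For Rpl22 the estimated length of 503 bases was 0.25 times the annotated median of 2048 bases, the largest shortfall of any core gene. FPKM levels of both genes therefore rest on which transcript the estimate assigned.

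When tibiae with titanium and the hydrogel were set against naive tibiae, 11 of the 84 tested ribosomal protein genes were higher and 0 lower at an adjusted p under 0.05 (edgeR's quasi-likelihood test, Benjamini-Hochberg over all genes). That is 13.1% of the members, beside 3.84% of all 14211 genes called higher and 4.43% called lower, and beside 12.9% called higher among the other genes of the shortest 10%. Their fold changes were small and ran one way: the median over the 84 was a log2 fold change of 0.51, or 1.43-fold, 83 were positive, and 65 had an unadjusted p under 0.05. Over all genes tested the median was 0.03, and 4237 of the 14211 had an unadjusted p under 0.05. Of the 1353 other genes of the shortest 10%, 594 did. In 50 of the 84 every Ti+I-OG library was above every naive library, beside 18.7% of all genes. The same held for 537 of the 1353 other genes of the shortest 10%.

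The direction was shared by both subunits. In the 46 core genes of the large subunit 5 rose, with a median log2 fold change of 0.51, and in the 31 of the small subunit 6 rose, with the same median of 0.51. Those that rose in the large subunit were Rpl36, Rpl41, Rpl13a, Rpl10a and Rplp2. In the small subunit they were Rps14, Rps15, Rps10, Rps21, Rps16 and Rps13. Rpl13a and Rpl10a lie outside the rule that named genes and are given because they complete the set.

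Rpl36, a protein of the large subunit, had 156, 192 and 144 CPM in Ti+I-OG, 118, 125 and 126 CPM in Ti and 109, 113 and 82.9 CPM in naive. The lowest Ti+I-OG library was above every Ti and naive library. Its log2 fold change against naive was 0.69 (SE 0.154, adjusted p = 0.0288, the smallest of the members). Rpl41, the shortest protein of the ribosome, had 996, 1331 and 780 CPM in Ti+I-OG, 905, 690 and 788 CPM in Ti and 616, 639 and 387 CPM in naive. All Ti+I-OG and all Ti libraries were above all naive libraries, while Ti+I-OG and Ti overlapped. The change against naive, 0.92 (SE 0.235, adjusted p = 0.0395), was the largest of any core gene.

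Rps14, which sits in the platform of the small subunit and whose single-copy loss causes the anaemia of the human 5q− syndrome, had 1655, 1996 and 1340 CPM in Ti+I-OG, 976, 1319 and 1321 CPM in Ti and 1009, 1059 and 665 CPM in naive. The Ti+I-OG libraries were all highest, although the lowest of them was barely above 2 Ti libraries. Its log2 fold change against naive was 0.87 (SE 0.221, adjusted p = 0.0394). Rps15, a protein of the head of the small subunit, had 772, 930 and 601 CPM in Ti+I-OG, 484, 591 and 618 CPM in Ti and 478, 513 and 357 CPM in naive. Ti+I-OG and naive did not overlap, but Ti overlapped both. The change was 0.77 (SE 0.197, adjusted p = 0.0394).

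Rps16, whose tail reaches the tRNA in the small subunit, had 644, 714 and 501 CPM in Ti+I-OG, 442, 498 and 496 CPM in Ti and 429, 436 and 314 CPM in naive, and the 3 groups did not overlap. Its log2 fold change was 0.66 (SE 0.176, adjusted p = 0.0450). Rps21 had 134, 168 and 120 CPM in Ti+I-OG, 120, 119 and 107 CPM in Ti and 98.6, 99.3 and 67.1 CPM in naive. Both titanium groups were above naive and overlapped each other, and the change was 0.67 (SE 0.175, adjusted p = 0.0415). Rps13 had 322, 357 and 290 CPM in Ti+I-OG, 266, 285 and 278 CPM in Ti and 243, 244 and 196 CPM in naive. The groups did not overlap, with a change of 0.51 (SE 0.139, adjusted p = 0.0474).

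Rps10, mutated in some patients with Diamond-Blackfan anaemia, had 582, 665 and 505 CPM in Ti+I-OG, 458, 477 and 473 CPM in Ti and 416, 419 and 311 CPM in naive. The groups were again in that order with no overlap, and the log2 fold change was 0.61 (SE 0.160, adjusted p = 0.0414). Rpl13a, a protein of the large subunit with a role in interferon-induced translational silencing, had 1919, 2024 and 1452 CPM in Ti+I-OG, 1200, 1416 and 1334 CPM in Ti and 1236, 1211 and 802 CPM in naive. Its Ti+I-OG libraries were above the other 6, and the change was 0.73 (SE 0.200, adjusted p = 0.0474). The exons of Rps10 overlap those of Gm49804 and the exons of Rpl13a those of Gm45713, and both have fractional counts, so some of their reads were shared out between genes and these values are uncertain. Rpl10a, the protein of the L1 stalk of the large subunit, averaged 658 ± 82.1 CPM in Ti+I-OG and 447 ± 59.9 CPM in naive (SD, n = 3 each), with a change of 0.56 (SE 0.157, adjusted p = 0.0496).

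**Figure D2:**
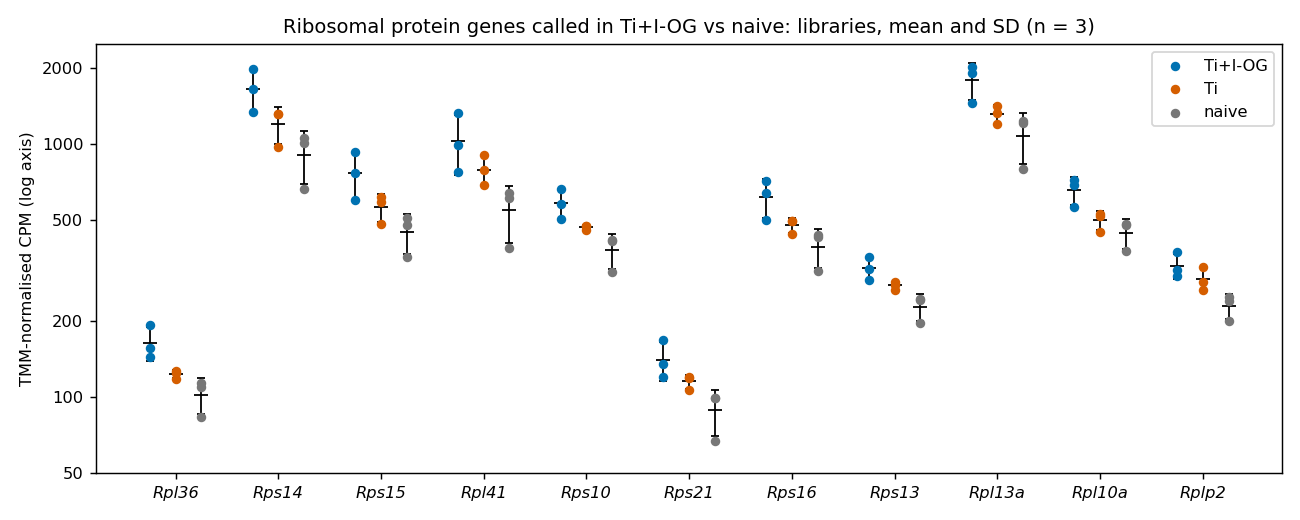
Normalised CPM on a log axis of the 11 ribosomal protein genes that passed the test in Ti+I-OG against naive. Points are libraries, the horizontal bar is the mean and the error bar the SD (n = 3). For every gene the lowest Ti+I-OG point is above the highest naive point.

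The P stalk is the flexible arm of the large subunit that recruits the GTPase factors of translation, made of Rplp0 and pairs of Rplp1 and Rplp2. Rplp2 had 318, 374 and 299.9 CPM in Ti+I-OG, 326, 286 and 266 CPM in Ti and 239.8, 249.7 and 199.7 CPM in naive, so that both titanium groups were above naive. It rose against naive by 0.53 (log2, SE 0.148, adjusted p = 0.0499). Rplp1 averaged 895 ± 177 CPM in Ti+I-OG and 566 ± 112 CPM in naive (SD, n = 3 each), a larger log2 difference of 0.66 that just missed the threshold (adjusted p = 0.0554). Rplp0, the base of the stalk, averaged 2319 ± 240 CPM in Ti+I-OG and 1760 ± 153 CPM in naive, with a log2 difference of 0.40 (adjusted p = 0.130). Rplp2 has fractional counts, and its value is uncertain for the same reason as that of Rpl13a.

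None of Rps19, Rpl11, Rpl5 and Rps6 passed. Rps19, the gene most often mutated in Diamond-Blackfan anaemia, had 400, 456 and 339 CPM in Ti+I-OG, 279, 329 and 304 CPM in Ti and 291, 295 and 212 CPM in naive. Ti+I-OG was above both other groups without overlap, with a log2 difference from naive of 0.58 (SE 0.167, adjusted p = 0.0526). Rpl11 and Rpl5, which bind MDM2 when ribosome assembly fails, had differences of 0.58 (adjusted p = 0.0741) and 0.32 (adjusted p = 0.260). Rps6, the phosphorylation target of S6 kinase, had a difference of 0.36 (adjusted p = 0.183). Rpl5 overlaps exons of Dipk1a, and its value is uncertain.

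The count of 11 depended on single libraries. With each library left out in turn, 0 members were called without Ti+I-OG replicate 1, Ti+I-OG replicate 2, Ti replicate 1, naive replicate 1 or naive replicate 3. The count was 3 without Ti+I-OG replicate 3 and 4 without Ti replicate 2, and 10 and 16 without Ti replicate 3 and naive replicate 2. The number of all genes called, in either direction, also moved with the library left out, from 59 to 2119, beside 1174 with all 9 libraries. The median log2 fold change over members stayed between 0.37 and 0.62 in these fits, and the lowest value, 0.37, came without naive replicate 3, when 0.577% of all genes were called higher. With the replicate number as a block over all 9 libraries, 67 of the 84 rose, beside 12.1% of all genes, and all 11 were among the 67. The share of other short genes in this fit is not given here. With the length offsets described below added, 3 rose, beside 6.85% of all genes. Pairing of Ti+I-OG with naive libraries was taken from these data by the check given with the methods. The block also holds the Ti libraries, which that check did not pair, so the count of 67 rests on this choice.

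The fold changes of ribosomal protein genes had to be read beside those of other short transcripts. In the shortest 10% of genes, up to 1101 bases, the 1353 genes that are no members had a median log2 fold change of 0.40 in Ti+I-OG against naive, and 175 of them, 12.9%, were called higher. The 69 members in that range had a median of 0.53. The share of members called, 13.1%, was close to that of other genes of like length. In the next 10%, 1101 to 1526 bases, the 10 members had a median of 0.42 and the 1411 other genes 0.26. The median of the other genes was lower at each further step in length, down to −0.31 in the longest 10%.

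**Figure D3:**
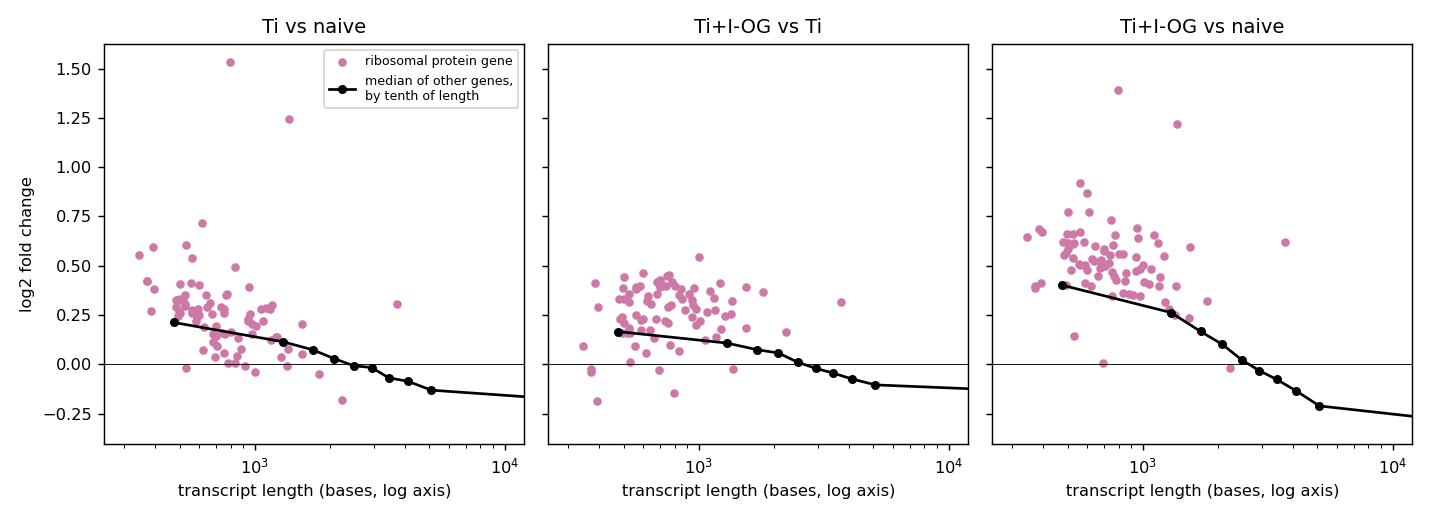
Log2 fold change against transcript length in bases (log axis) for the 84 tested ribosomal protein genes (points), with the median of all other genes at 10 steps of length (black line). In Ti+I-OG vs naive the line runs from 0.40 at the shortest step downward with length, and 65 of the 84 members lie above 0.40.

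Offsets that remove a smooth trend of count on length in each library took most of the difference away. With them, 0 of 84 members were called in Ti+I-OG against naive by edgeR, beside 1.13% of all genes called higher. An unadjusted p under 0.05 was found for 10 of the 84, beside 3378 of all 14211 genes. The median over members was a log2 fold change of 0.10, with 67 positive and 17 negative. The changes that remained largest among the 11 were those of Rpl41 (0.47, SE 0.151, adjusted p = 0.108) and Rps14 (0.43, SE 0.171, adjusted p = 0.166), while Rps13 was at 0.06 and Rplp2 at 0.08. With offsets and the replicate block together 3 members were called, beside 6.85% of all genes called higher, and Rpl41 was the only 1 of the 11 among them (0.47, adjusted p = 0.0432). Since 69 of the 84 members are in the shortest 10% of genes, a change of the ribosomal protein genes as a group and a change of short transcripts in general cannot be fully told apart in these libraries.

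**Figure D4:**
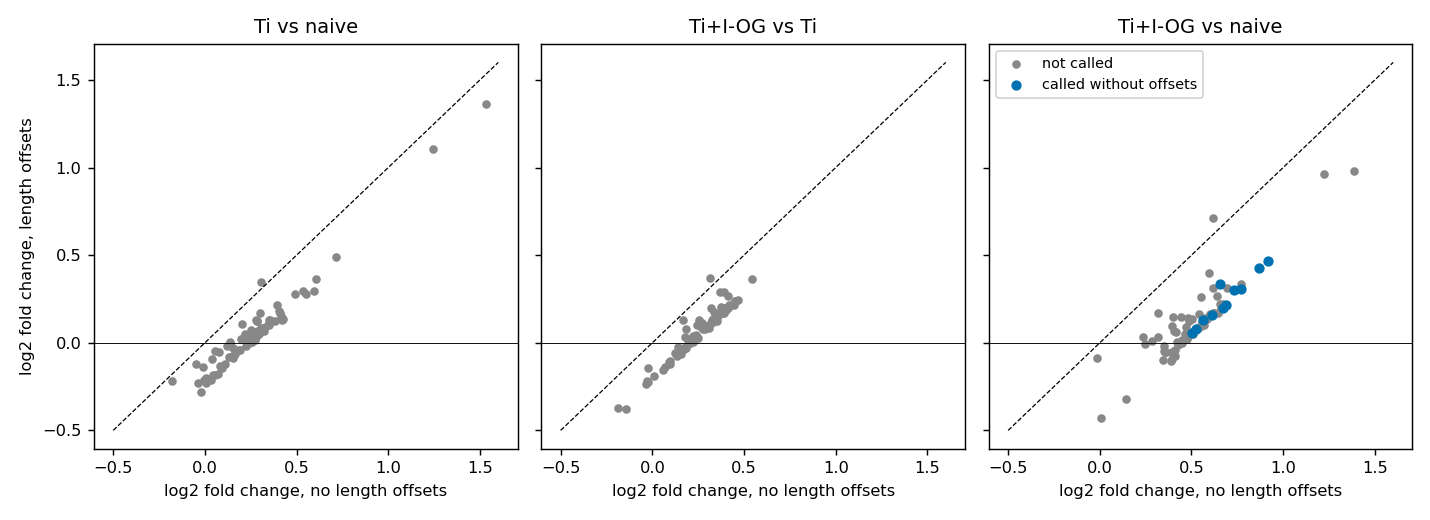
Each point is 1 of the 84 tested ribosomal protein genes, with its log2 fold change without length offsets (horizontal) and with them (vertical), and the dashed line marks equal values. All points but that of Rps20 lie below the line in each comparison, and in Ti+I-OG vs naive the 11 genes called without offsets (blue) lie between 0.06 and 0.47 with them.

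The same dependence was visible inside the core, though not in each comparison. The Spearman coefficient of fold change with length across the 77 core genes, which are not independent replicates, was −0.35 in Ti+I-OG against naive, 0.16 in Ti+I-OG against Ti and −0.57 in Ti against naive. Over all 14211 genes it was −0.40, −0.32 and −0.24, so in Ti+I-OG against Ti the core ran the other way. With length offsets the core coefficient was 0.07 in Ti+I-OG against naive, 0.37 in Ti+I-OG against Ti and −0.30 in Ti against naive. The offsets therefore left a relation to length inside the core in Ti+I-OG against Ti and in Ti against naive. In Ti+I-OG against naive the 26 shortest core genes (345 to 598 bases) had a median log2 fold change of 0.59, the next 25 one of 0.53 and the 26 longest (860 to 3706 bases) one of 0.45. With offsets these were 0.13, 0.08 and 0.13. Rps20, the longest core transcript, had a difference of 0.62 from naive (adjusted p = 0.0757). It was the only member whose signed log2 fold change was higher with offsets (0.71). Its length is the estimate described above, so its place among long transcripts rests on which transcript was assigned. Of the 17 members that were negative against naive with offsets, Rpl36al (−0.32, adjusted p = 0.118) and Rpl10 (−0.43, adjusted p = 0.139) had the smallest p. Neither was negative without offsets.

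The comparison of Ti+I-OG with Ti sets the hydrogel, given on top of titanium, against titanium alone. Here 0 of 84 members passed by edgeR in either direction, 14 had an unadjusted p under 0.05, and DESeq2 and limma on FPKM also called 0. Over all genes 0.0422% were called higher and 0% lower. An unadjusted p under 0.05 was found for 1114 of the 14211 genes and 199 of the 1353 other genes of the shortest 10%. The median over members was a log2 fold change of 0.28, with 78 of 84 positive, beside −0.003 over all genes and 0.17 over the other genes of the shortest 10%. In 22 of the 84 every Ti+I-OG library was above every Ti library, beside 7.75% of all genes. The same held for 220 of the 1353 other genes of the shortest 10%.

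The members with the smallest p in this comparison did not pass. Rps2, a protein at the mRNA entry of the small subunit, had 2454, 2553 and 1802 CPM in Ti+I-OG and 1235, 1869 and 1564 CPM in Ti, and the lowest Ti+I-OG value lay below the highest Ti value. Its log2 difference was 0.54 (SE 0.200, adjusted p = 0.628). Rpl36, Rpl8 and Rpl13 had differences of 0.41, 0.38 and 0.42, each without overlap between the groups and each with an adjusted p of 0.628. On the negative side Rps29 was at −0.19 (adjusted p = 0.846), Rpl39l at −0.14 (0.957), Rps28 at −0.04 (0.958) and Rpl10 at −0.03 (0.975). With length offsets the median over members was 0.10, with 61 positive and 23 negative.

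Between Ti and naive, 0 of 84 members passed by edgeR, beside 4.05% of all genes called higher and 2.39% called lower. An unadjusted p under 0.05 was found for 10 of the 84, beside 3821 of all 14211 genes and 322 of the 1353 other genes of the shortest 10%. DESeq2 and limma on FPKM also called 0. The median log2 fold change over members was 0.26, with 78 positive, beside 0.01 over all genes and 0.21 over the other genes of the shortest 10%. In 19 of the 84 every Ti library was above every naive library, beside 14.3% of all genes. The same held for 274 of the 1353 other genes of the shortest 10%. Without naive replicate 3 the median over members was 0.06, and with length offsets it was 0.03. With the replicate block 13 were called, beside 10.6% of all genes called higher. Both this comparison and that of Ti+I-OG with naive use the naive libraries.

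Rps28, which lies near the mRNA exit of the small subunit, had 85.1, 72.9 and 65.1 CPM in Ti and 59.0, 54.9 and 52.5 CPM in naive. The groups did not overlap, but the difference of 0.42 (log2, SE 0.148, adjusted p = 0.103) did not pass. Its exons overlap those of Kank3, so its value is uncertain. Rpl37 had 219, 164 and 164 CPM in Ti and 144, 139 and 106 CPM in naive, with a difference of 0.49 (adjusted p = 0.109). Rps29 had 203, 134 and 114 CPM in Ti and 107, 108 and 83.9 CPM in naive, with a difference of 0.60 (adjusted p = 0.120). For Rpl37 and Rps29 the value of Ti replicate 1 stood well above the other Ti libraries. The 4 negative members with the smallest p were Rpl7l1 (−0.18, adjusted p = 0.351), Rpsa (−0.05), Rps2 (−0.04) and Rpl36al (−0.02, adjusted p for these 3 from 0.889 to 0.953). Without Ti replicate 1, Rpsa was at 0.02 and Rps2 at 0.09.

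Ti replicate 1 differed from the other libraries in how the core genes stood to each other. Relative to the mean of the core in the same library, the SD over the 77 genes was 0.25 in Ti replicate 1, 0.10 and 0.09 in the other Ti libraries, 0.10, 0.13 and 0.11 in Ti+I-OG and 0.08, 0.06 and 0.20 in naive. In Ti replicate 1 the 26 shortest core genes were at 0.13 (log2) relative to the core's mean and the 26 longest at −0.08. At the ends were Rps29, at 0.70, and Rps2, at −0.53. Naive replicate 3 showed the opposite lean, with the 26 shortest at −0.11 and the 26 longest at 0.07.

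Over the 9 libraries, Rpl39l, Rpl3l, Rpl39 and Rpl10 varied most around the core's mean, with SDs of 1.17, 0.77, 0.33 and 0.30 on the log2 scale. Rpl19 and Rpl27a varied least, with SDs of 0.04 and 0.05. Rpl19 had 1090, 1173 and 861 CPM in Ti+I-OG, 926, 906 and 874 CPM in Ti and 850, 814 and 593 CPM in naive. This is nearly the pattern of the core's mean itself.

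Rpl10, which completes the large subunit late in its assembly, did not follow the core. It had 406, 397 and 379 CPM in Ti+I-OG, 516, 356 and 335 CPM in Ti and 425, 407 and 345 CPM in naive, and its log2 difference was 0.01 in Ti+I-OG against naive, the smallest of any core gene. The row of a pseudogene, Rpl10-ps3, which the rule leaves out, held more counts than Rpl10 itself in each library. Rpl10 took 29.0%, 28.1% and 33.2% of the counts of both rows in Ti+I-OG, 45.6%, 28.8% and 30.3% in Ti and 37.7%, 38.0% and 37.4% in naive. Rpl10 has fractional counts, so reads were divided between near-identical copies, and its own value is uncertain. With both rows summed, a choice made after seeing the data, the level was 1399, 1413 and 1141 CPM in Ti+I-OG, 1131, 1237 and 1103 CPM in Ti and 1128, 1072 and 923 CPM in naive. The log2 difference of the sum was 0.34 from naive (adjusted p = 0.162) and 0.19 between Ti+I-OG and Ti (adjusted p = 0.763), where Rpl10 alone was at −0.03. The other 6 pseudogene rows held 96.9 counts or fewer each over all libraries.

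Rpl3l is a paralogue of Rpl3 made in striated muscle. It had 19.0, 29.9 and 23.7 CPM in Ti+I-OG, 22.8, 38.8 and 12 CPM in Ti and 5.09, 15.9 and 10.2 CPM in naive. Ti+I-OG was above naive without overlap, while Ti spanned both. The log2 difference from naive was 1.22 in Ti+I-OG (SE 0.429, adjusted p = 0.0869) and 1.24 in Ti (SE 0.427, adjusted p = 0.0980), and neither passed. As a share of the FPKM of Rpl3, Rpl3l was at 1.88% ± 0.426 in Ti+I-OG, 2.25% ± 1.25 in Ti and 0.961% ± 0.505 in naive (SD, n = 3 each). Rpl3 itself averaged 1282 ± 104, 1073 ± 30.4 and 1080 ± 72.8 CPM in the same groups.

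The 20 skeletal muscle markers, none of them at 0 throughout, took 0.398%, 0.679% and 0.632% of counts in Ti+I-OG, 0.623%, 1.04% and 0.288% in Ti and 0.136%, 0.389% and 0.354% in naive. The libraries with the highest and the lowest muscle share, Ti replicate 2 and naive replicate 1, were also those with the highest and the lowest Rpl3l. Of these markers 5 rose in Ti+I-OG against naive (14 with the replicate block), 3 in Ti+I-OG against Ti and 2 in Ti against naive, and their summed level was 4345 to 7578 CPM in Ti+I-OG, 2844 to 10359 CPM in Ti and 1276 to 3752 CPM in naive. Their part in the level of Rpl3l was not tested.

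**Figure D5:**
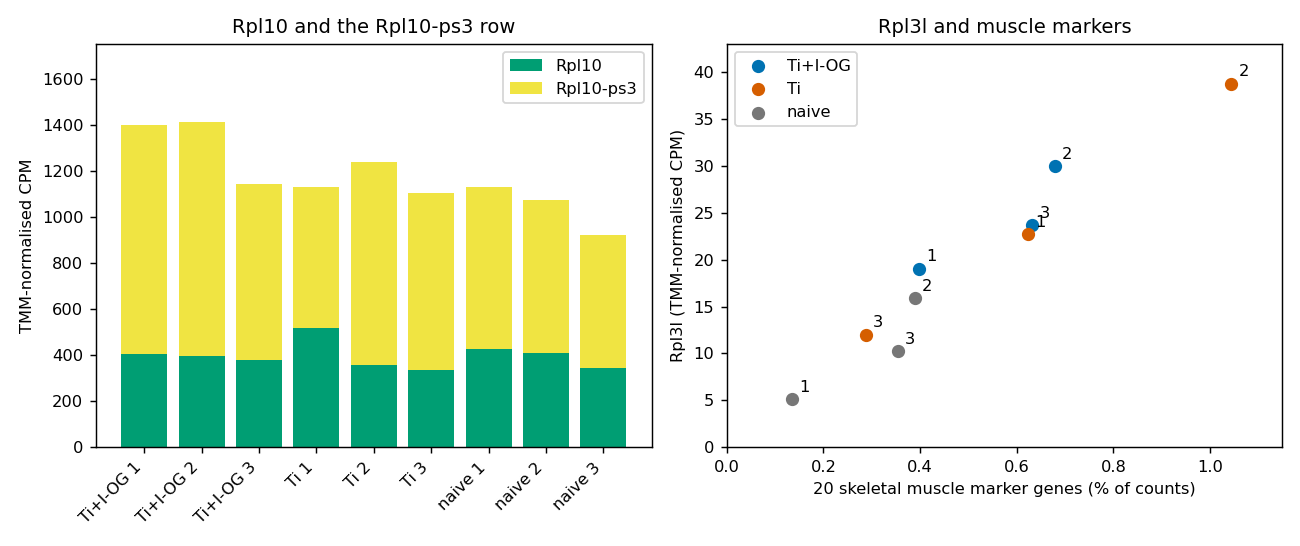
Left, stacked bars of the normalised CPM of Rpl10 and of the pseudogene row Rpl10-ps3 in each library; the share of Rpl10 is largest in Ti replicate 1 (45.6%). Right, the CPM of Rpl3l in each library against the share of counts in 20 skeletal muscle markers, numbered by replicate; both are highest in Ti replicate 2 and lowest in naive replicate 1.

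Among the other copies none passed in the edgeR fit over all 9 libraries with TMM and without block or offsets. Over 21 alternative fits, Rpl3l and Rps27l each passed in 2 and Rpl22l1 and Rpl39l in 1 in Ti+I-OG against naive. In Ti against naive Rpl3l passed in 4 of these fits, Rpl22l1 and Rpl39l in 2 each and Rps27l in 0. With the replicate block, in Ti+I-OG against naive, the adjusted p was 0.0109 for Rpl3l, 0.0491 for Rpl39l, 0.00680 for Rpl22l1 and 0.00418 for Rps27l. With block and length offsets none of these 4 passed (adjusted p from 0.0581 for Rpl3l to 0.326 for Rps27l). Rpl39l, a testis-enriched copy of Rpl39, had 1.78, 3.43 and 1.25 CPM in Ti+I-OG, 2.74, 2.47 and 1.86 CPM in Ti and 1.10, 1.21 and 0.126 CPM in naive. The naive libraries were all lowest, and the naive replicate 3 value is at the level of the floor of 3 counts. The log2 difference from naive was 1.39 in Ti+I-OG (SE 0.610, adjusted p = 0.152) and 1.53 in Ti (SE 0.602, adjusted p = 0.135). Rpl22l1, which can stand in for Rpl22, averaged 66.4 ± 15.1 CPM in Ti+I-OG, 66.0 ± 20.6 CPM in Ti and 43.3 ± 13.1 CPM in naive, with a log2 difference of 0.62 between Ti+I-OG and naive (adjusted p = 0.152). Its parent Rpl22 had the same difference, 0.62 (adjusted p = 0.0853), and Rpl22l1 stayed at 22.1%, 25.4% and 22.3% of the FPKM of Rpl22 in Ti+I-OG, Ti and naive.

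Rps27l, a p53-responsive copy of Rps27, had a log2 difference of 0.59 from naive in Ti+I-OG (adjusted p = 0.0694), beside 0.64 for Rps27 (adjusted p = 0.122). Rpl7l1, which is used in ribosome assembly, was at −0.02 and Rpl36al at 0.14, and their parents Rpl7 and Rpl36a were at 0.40 and 0.55, none of the 4 passing. As a share of the parent's FPKM, Rpl36al was at 36.4% ± 5.73 in Ti+I-OG, 37.2% ± 2.51 in Ti and 49.5% ± 12.1 in naive (SD, n = 3 each). Rpl7l1 was at 3.70% ± 1.10, 3.90% ± 0.730 and 5.06% ± 0.480 of the FPKM of Rpl7 in the same groups. At 2238 bases Rpl7l1 is also far longer than its parent at 1161 bases. Rps27, Rpl36a, Rpl36al and Rpl7l1 have fractional counts, and Rpl36al overlaps exons of another gene, so these ratios are uncertain.

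Genes that work with the ribosomal proteins were described from lists, with no test of a list. Fau, which encodes a small-subunit protein fused to a ubiquitin-like moiety and which the symbol rule misses, rose in Ti+I-OG against naive by 0.60 (log2, SE 0.165, adjusted p = 0.0475). With length offsets it was at 0.15 (adjusted p = 0.460) and did not pass. Without offsets its difference was 0.31 between Ti+I-OG and Ti and 0.29 between Ti and naive, and neither passed. Rack1, the scaffold on the head of the small subunit, was at 0.42 in Ti+I-OG against naive, 0.31 in Ti+I-OG against Ti and 0.11 in Ti against naive, and passed in none of them.

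Of 10 elongation factors 0 passed by edgeR (3 at an unadjusted p under 0.05), with a median of 0.20, the smallest p belonging to Eef1e1 (0.63, adjusted p = 0.0580) and Eef1b2 (0.53, adjusted p = 0.0619). Of 36 initiation factors 0 passed (7 at an unadjusted p under 0.05), with a median of 0.07. Among 93 ribosome biogenesis factors 1 rose and 2 fell, with a median of −0.06. Imp3, which brings the U3 snoRNA to the pre-rRNA, rose by 0.72 (adjusted p = 0.0290). Mdn1, a very large AAA ATPase that matures the large subunit, fell by 0.94 on the log2 scale (adjusted p = 0.0185) and Rrp1b, a nucleolar protein, by 0.65 (adjusted p = 0.0311). With length offsets 0 of the 93 passed by edgeR (12 at an unadjusted p under 0.05), and Imp3 was at 0.32 (adjusted p = 0.162), Mdn1 at −0.26 (0.285) and Rrp1b at −0.47 (0.0744). With the replicate block 3 elongation factors were higher, 5 initiation factors were higher and 3 lower, and 4 biogenesis factors were higher and 5 lower. Of all 14211 genes, 1720 were higher and 1730 lower in that fit. With block and offsets together the counts were 1 elongation factor higher, 1 initiation factor higher and 2 lower, and 2 biogenesis factors higher and 3 lower. Of all genes 974 were higher and 1126 lower.

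The 16 genes of RNA polymerase I and its factors, which make the ribosomal RNA, had a median of −0.06 in Ti+I-OG against naive, with 0 passing (4 at an unadjusted p under 0.05). The 26 regulators of ribosomal protein synthesis had a median of −0.26, with 0 passing by edgeR and 8 at an unadjusted p under 0.05. The block gave 2 genes of the RNA polymerase I list higher and 1 lower, and 2 regulators higher and 5 lower, beside 1720 higher and 1730 lower of all 14211 genes. With block and length offsets 0 of the 16 passed, and 0 regulators were higher and 1 lower. In Ti against naive Mdn1 fell by 0.91 and Rrp1b by 0.83 on the log2 scale (adjusted p = 0.0167 and 0.0139). Of the regulators, Tsc1, an inhibitor of mTOR signalling, fell by 0.56 (adjusted p = 0.0374). With length offsets Rrp1b was at −0.73 (adjusted p = 0.0133) and still passed, while Mdn1 at −0.47 (0.0760) and Tsc1 at −0.36 (0.112) did not. No gene of these lists passed between Ti+I-OG and Ti.

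Mitochondrial ribosomal protein genes, nuclear respiratory chain genes and proteasome subunit genes are other sets of widely expressed genes and give the scale. In Ti+I-OG against naive 4 of 78, 23 of 83 and 0 of 39 of them rose and 0 fell, with medians of 0.32, 0.53 and 0.14, beside 11 of 84 and 0.51 for the ribosomal protein genes. The 4 mitochondrial ribosomal protein genes were Mrps24 (0.88), Mrpl14 (0.83), Mrpl52 (0.82) and Mrpl53 (0.77). With length offsets 1 of 78 (Mrps24), 1 of 83 (Ndufa4l2) and 0 of 39 rose and 0 fell, beside 0 of 84, and the medians of the 3 sets were 0.06, 0.12 and −0.08, beside 0.10 for the ribosomal protein genes. With the replicate block 31, 60 and 4 of them were higher, beside 67 of 84 and 12.1% of all genes. With block and offsets 3, 9 and 0 were higher and 1 of each set lower, beside 6.85% of all genes higher. In Ti against naive the medians of the mitochondrial ribosomal protein, respiratory chain and proteasome genes were 0.08, 0.33 and −0.004, beside 0.26. The differences between these sets were not tested.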

How the data were processed

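Libraries of poly(A) RNA were prepared, per the labels' protocols, with a NEBNext Ultra kit that does not mark strand. Per the submitters' processing notes the tools were StringTie 1.3.1, RSEM, edgeR, DESeq2 and fastp, listed with no role. The aligner, the genome build and the annotation were not given in the sources used here. The authors deposited estimated counts and FPKM per gene and library. Estimated counts were rounded and fitted with edgeR 4.0.16 (R 4.3.3) over all 9 libraries, with filterByExpr, TMM and a 2-sided quasi-likelihood test (6 residual degrees of freedom). Adjusted p-values are Benjamini-Hochberg over 14211 genes, with a threshold of 0.05. Fold changes are those of the first group named over the second, and CPM values are TMM-normalised. Length is the median ratio of counts to deposited FPKM over libraries. DESeq2 1.42.0 and limma 3.58.1, on log2(FPKM + 1) and log2(FPKM + 0.1), were alternatives, and the fits were tested on simulated data.

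Every pair of replicates differed by more than counting noise (chi-square over its degrees of freedom, 12.9 to 132), and all were kept. Deviations from group means of same-numbered libraries correlated at 0.180, 0.105 and 0.255 between Ti+I-OG and naive, all over 0.1, so these numbers were taken as pairs. This pairing comes from the data and not from the labels. The block was fitted over all 9 libraries, so it also holds the Ti libraries, whose numbers were not taken as pairs. Members and lists were chosen with earlier results of these data known. Named were, per comparison, the 8 called members with the smallest p or else the 4 with the smallest p in each direction, fixed paralogues and parents, the P stalk, Rpsa, Rps19, Rpl5, Rpl11 and Rps6, extremes of level, length and variability, and up to 3 genes of each other list. Counting floors are 3 counts (0.114 to 0.206 CPM) and cover counting error only. Start windows and exon overlaps came from RefSeq and GENCODE M21 and were matched by symbol and gene ID; 20 members had no window. Some results of the lists of ribosome components and TOP mRNA genes are not reported here.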

Additional observations from a re-analysis of the deposited data

Results flagged for a closer look

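Rpl10-ps3, a pseudogene row that the symbol rule leaves out, averaged 924 CPM in Ti+I-OG tibiae, and each of its Ti+I-OG libraries (993, 1016 and 762 CPM) was above each naive library (703, 665 and 577 CPM). Its log2 difference was 0.51 (adjusted p = 0.0849), which did not pass. The row shares reads with Rpl10, and how many of its counts come from Rpl10 transcripts was not tested.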

How the results depend on the processing

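The median over members was positive in all 3 comparisons under each alternative run. For Ti+I-OG against naive, where 11 members were called, the count was 4 with total counts, 7 with TMM computed without globin, mitochondrial and ribosomal protein genes, 40 with DESeq2, 2 with limma on log2(FPKM + 1) or log2(FPKM + 0.1), 0 without a filter on FPKM and 0 with only the 2 groups compared. With the replicate block it was 67, with length offsets 0 and with both 3. Leaving out 1 library gave 0 to 16. Over all genes, in either direction, 1174 were called where 11 members were. The alternatives called 351 to 3450 of all genes, and the fits with 1 library left out 59 to 2119. The share of all genes called with DESeq2 or limma is not given here, so those counts of members have no scale beside them. Total counts moved the median of all genes to −0.16 and that of members to 0.31, and limma on log2(FPKM + 1) gave −0.16 and 0.32. Length offsets took the median of members to 0.10 (0.10 with the block as well), and in Ti against naive to 0.033 (0.033 with the block). In Ti against naive 13 members were called with the replicate block, beside 10.6% of all genes called higher. With block and offsets 5 were called higher, beside 9.78% of all genes called higher. With a library left out 0 to 2 were called (2 without Ti replicate 3, 1 without naive replicate 2), beside 100 to 1999 of all genes. In that comparison same-numbered libraries correlated at −0.028, 0.313 and 0.224 and between Ti+I-OG and Ti at 0.063, 0.185 and 0.207. In each of these 1 value was under 0.1, so the numbers were not taken as pairs there. The values were otherwise close to those between Ti+I-OG and naive (0.180, 0.105 and 0.255), so only this cut parts the comparisons. Between Ti+I-OG and Ti the block called 0.

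The members' share of counts without globin and mitochondrial genes was 7.86% in Ti+I-OG, 6.51% in Ti and 5.66% in naive. The members' share of summed FPKM, with globin and mitochondrial genes included, was 9.72%, 9.63% and 9.45% in Ti+I-OG, Ti and naive. The coefficient of fold change with length over core genes was −0.48 in Ti against naive and −0.27 in Ti+I-OG against naive with annotated length. With a library left out it ran from −0.57 to −0.46 in Ti against naive, from −0.037 to 0.31 in Ti+I-OG against Ti and from −0.37 to −0.26 in Ti+I-OG against naive. Members near 0 changed sign when a library was left out. In Ti against naive Rpsa ran from −0.16 to 0.023, Rps2 from −0.20 to 0.093 and Rpl36al from −0.15 to 0.073. In Ti+I-OG against Ti Rpl39l ran from −0.64 to 0.13, Rps28 from −0.13 to 0.082, Rps29 from −0.35 to 0.088 and Rpl10 from −0.15 to 0.19, and Rpl10 summed with Rpl10-ps3 was at 0.19. The causes were not tested. With 3 libraries a group, no member passed between Ti+I-OG and Ti, where the highest difference was 0.54.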
